A study of Mus musculus with 12 samples.

Results

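The genes described here make, break down and regulate polyamines. Of 10 such genes, 7 had a probe set of their own on the array and all 7 were bright enough to be tested, out of 18652 genes tested in all. The 7 were Odc1 and Srm (synthesis), Sat1 and Smox (catabolism), and Oaz1, Oaz2 and Azin1 (regulation). Probe sets were matched by the gene symbol of the array annotation, and the one with the highest mean over the 12 arrays gave the gene's value. Sms (spermine synthase) had only a probe set shared with its pseudogene Sms-ps and was not used, and Amd1 (S-adenosylmethionine decarboxylase) and Paox (the oxidase of acetylated polyamines) were not analysed here. Synthesis was therefore seen through 2 of its 4 listed genes and catabolism through 2 of 3.

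The cells, called MP, model Group 3 medulloblastoma driven by MYC in the mouse. They came from 3 tumours (MP525, MP567 and MP570) grown in cerebella of NSG mice, an immunodeficient strain, and were plated as dissociated cells in Neurocult medium with proliferation supplement. They were given 25 nM LBH589 (panobinostat, a histone deacetylase inhibitor) or 0.00025% DMSO, the solvent. The 4 groups were LBH589 for 6 h, DMSO for 6 h, LBH589 for 12 h and DMSO for 12 h, each with 3 arrays, 1 from each tumour. The study compared drug with solvent to learn how the drug kills these cells. The sources used here do not say how the tumours were started or whether separate mice bore them, so p-values measure the spread between these cultures.

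Polyamines (putrescine, spermidine and spermine) are small cations that bind nucleic acids and are needed for growth. Ornithine decarboxylase (Odc1) makes putrescine, and spermidine synthase (Srm) extends it to spermidine. Spermidine/spermine acetyltransferase (Sat1) and spermine oxidase (Smox) run the pathway backwards. Antizymes (Oaz1, Oaz2) bind ornithine decarboxylase and send it to the proteasome, and the antizyme inhibitor (Azin1) sequesters antizyme. Odc1 is a long known target gene of MYC. Antizyme activity is set largely by frameshifting during translation, which a transcript level does not show.

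Upstream sequence is shown for 3 genes: Sat1 and Oaz2, which were called higher in LBH589 in the comparison over both times, and Odc1, which did not pass the test. Whether the response of Odc1 differed from theirs was not tested. Each is the 250 bases before the start used in a RefSeq promoter table, 5′ to 3′ on the gene's strand, from GRCm38.p6. For Odc1 that start lies just inside the annotated span of the gene, so the end of its window falls within the gene. The capitals mark GGGCGG, the GC box core, on either strand (CCGCCC on the strand shown).
Odc1, chr12:17544623-17544872, plus strand: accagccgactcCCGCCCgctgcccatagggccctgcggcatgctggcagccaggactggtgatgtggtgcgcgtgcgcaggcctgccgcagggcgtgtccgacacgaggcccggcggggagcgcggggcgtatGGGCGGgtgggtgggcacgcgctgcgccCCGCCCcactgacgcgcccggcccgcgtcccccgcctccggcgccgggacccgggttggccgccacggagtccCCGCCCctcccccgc
Sat1, chrX:155216450-155216699, minus strand: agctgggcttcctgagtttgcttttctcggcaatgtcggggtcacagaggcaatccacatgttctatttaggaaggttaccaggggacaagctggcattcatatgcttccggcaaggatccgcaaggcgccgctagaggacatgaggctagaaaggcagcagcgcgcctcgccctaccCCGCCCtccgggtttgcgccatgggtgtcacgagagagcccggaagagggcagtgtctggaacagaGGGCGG
Oaz2, chr9:65676298-65676547, plus strand: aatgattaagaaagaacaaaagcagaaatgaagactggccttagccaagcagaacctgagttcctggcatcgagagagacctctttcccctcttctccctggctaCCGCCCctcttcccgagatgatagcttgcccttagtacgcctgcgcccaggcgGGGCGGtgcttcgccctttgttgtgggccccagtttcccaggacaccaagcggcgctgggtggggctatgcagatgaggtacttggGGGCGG
The Odc1 window held 4 such matches, the Sat1 window 2 and the Oaz2 window 3. GGGCGG was in 32.7% of the 32851 promoters of the same table and length, and in 8 of the 10 windows listed for these genes. These windows are counted by start, not by gene. Sms and Paox have more than 1 window each, the Paox windows overlap and share a match, and Srm and Azin1 have none. Neither CACGTG, a MYC E-box (6.02% of all promoters), nor TATAA (22.8%), both searched on both strands, was in the 3 windows shown. Within these genes' windows, CACGTG was in 1 of Sms and TATAA in 1 of Amd1. A match describes letters in the window and is not a binding site, and sequence outside the windows was not searched for any of these motifs.

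Srm was the member with the clearest change and was lower in LBH589 at both times. Its gene lies at chr4:148591513-148594619 (GRCm38.p6, RefSeq). Its log2 expression values were 12.58, 12.73 and 12.68 in LBH589 at 6 h (MP525, MP567 and MP570, the order kept below), against 13.48, 13.47 and 13.46 in DMSO. At 12 h they were 12.66, 12.70 and 12.78 in LBH589, against 13.41, 13.26 and 13.39 in DMSO. Every LBH589 array lay below every DMSO array. The group means were 12.66 ± 0.0735 in LBH589 and 13.47 ± 0.00865 in DMSO at 6 h, and 12.72 ± 0.0623 in LBH589 and 13.35 ± 0.0814 in DMSO at 12 h (SD, n = 3 each). The log2 fold change was -0.81 at 6 h (95% confidence interval -0.94 to -0.68, 1.75-fold lower, limma adjusted p = 2.84e-05). At 12 h it was -0.64 (-0.77 to -0.51, 1.56-fold lower, limma adjusted p = 6.32e-05). The single tumours gave -0.90, -0.74 and -0.78 at 6 h, and -0.75, -0.57 and -0.60 at 12 h. In bulk RNA, fewer cells of a type and less RNA per cell cannot be told apart. The call held without each array, without each tumour and under every other setting run, with a largest adjusted p of 0.0153 at 6 h and 0.0121 at 12 h.

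Odc1, the gene of the entry enzyme (chr12:17544808-17551502), did not pass the test at either time. It had log2 values of 11.83, 11.75 and 11.34 in LBH589 at 6 h, against 11.85, 11.68 and 11.75 in DMSO. At 12 h it had 11.54, 11.64 and 11.10 in LBH589, against 11.70, 11.61 and 11.56 in DMSO. The groups overlapped at both times, and the MP570 array was the lowest of the LBH589 arrays each time. The log2 fold change was -0.12 at 6 h (95% confidence interval -0.45 to 0.21, limma adjusted p = 0.692) and -0.20 at 12 h (-0.53 to 0.13, limma adjusted p = 0.432). With the tumour as a block in the fit, which compares drug with solvent within each tumour, these adjusted p-values were 0.425 and 0.144. The blocked value at 12 h passed without MP567 (-0.31, adjusted p = 0.0362) or without its LBH589 12 h array alone (-0.30, 0.0320). The Myc probe set read 8.34 to 8.78 over the 12 arrays, with log2 fold changes of 0.09 (6 h) and 0.21 (12 h; limma adjusted p = 0.697 and 0.260). Whether it also reads an introduced Myc was not tested.

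**Figure D1:**
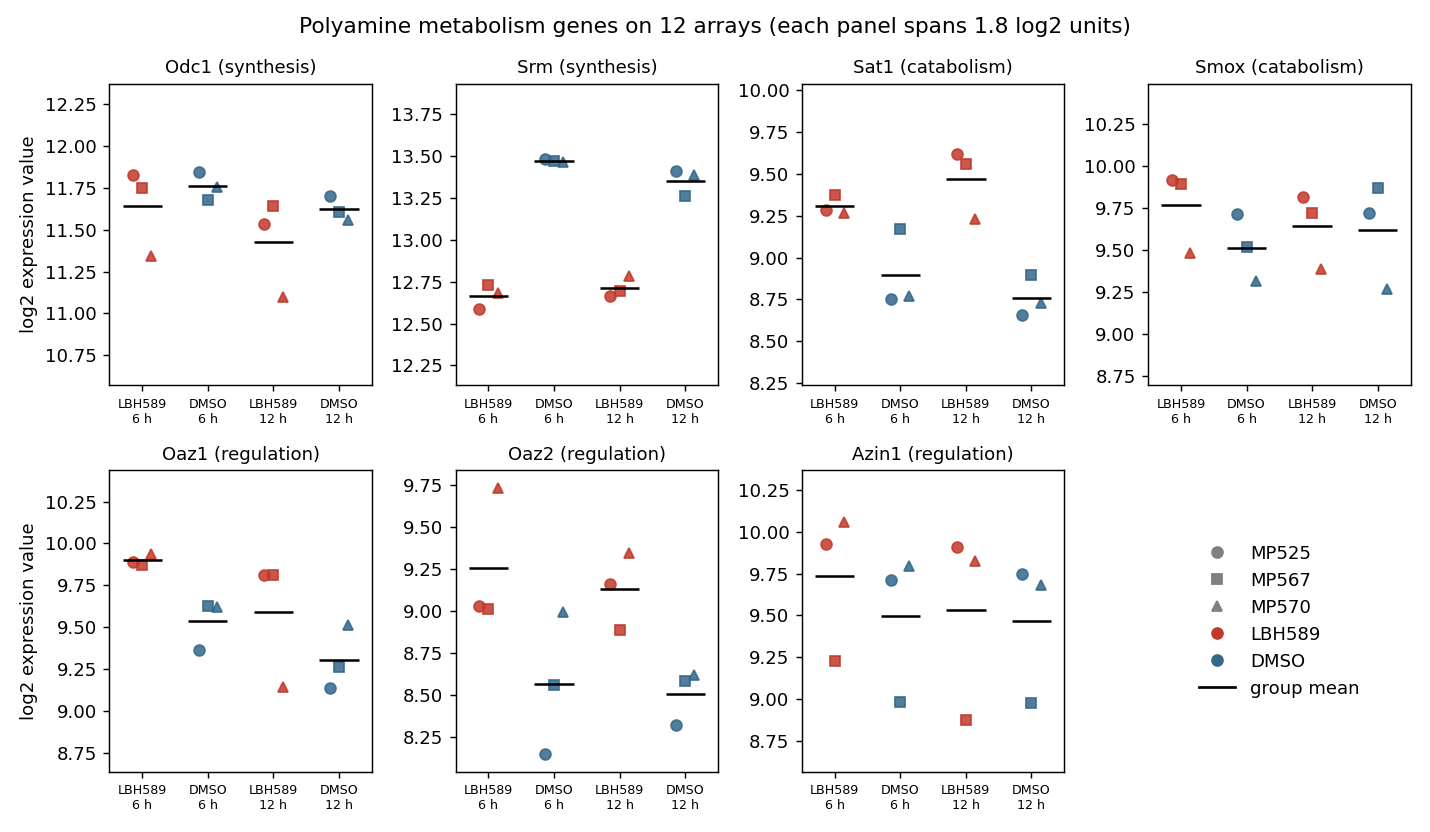
Log2 expression value (vertical axis) of the 7 genes on each of the 12 arrays, by treatment and time along the horizontal axis; the symbol gives the tumour, the colour the treatment and the bar the group mean, and every panel spans the same range of log2 units. Srm in LBH589 lies between 12.58 and 12.78, below all DMSO arrays, and Odc1 overlaps between the groups.

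Sat1, whose product acetylates spermidine and spermine (chrX:155213126-155216449), was higher in LBH589. At 6 h its log2 values were 9.28, 9.37 and 9.27 in LBH589, against 8.75, 9.17 and 8.77 in DMSO. At 12 h they were 9.62, 9.56 and 9.23 in LBH589, against 8.66, 8.89 and 8.73 in DMSO. The groups did not overlap at either time, and the DMSO array of MP567 was the highest DMSO array each time. The log2 fold change at 12 h was 0.71 (95% confidence interval 0.39 to 1.03, 1.64-fold, limma adjusted p = 0.00624). At 6 h it was 0.41 (0.09 to 0.73), which did not pass the test without the block (limma adjusted p = 0.0825) and passed with it (0.00757). Without the DMSO 6 h array of MP567 the unblocked value was 0.55 and passed (0.0336). By tumour it was 0.53, 0.20 and 0.50 at 6 h, and 0.96, 0.67 and 0.50 at 12 h. The 12 h call without the block was lost without MP525 (adjusted p = 0.109). The blocked 6 h call was lost without the LBH589 array of MP570 or the DMSO array of MP525 (adjusted p up to 0.0550), and without MP525 or MP570 as a whole (up to 0.0803).

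Smox, whose product oxidises spermine to spermidine (chr2:131491858-131525183), passed the test at neither time without the block. It had log2 values of 9.92, 9.90 and 9.48 in LBH589 at 6 h, against 9.71, 9.52 and 9.31 in DMSO. After 12 h the values were 9.82, 9.72 and 9.39 in LBH589, against 9.72, 9.87 and 9.27 in DMSO. The groups overlapped at both times, with MP570 the lowest array in every group. Its log2 fold change was 0.25 at 6 h (95% confidence interval -0.17 to 0.67, limma adjusted p = 0.454) and 0.02 at 12 h (-0.40 to 0.44, limma adjusted p = 0.957). With the block the 6 h difference passed the test (limma adjusted p = 0.0435), and it no longer did under quantile or median scaling (up to 0.0736), without any 1 of 7 of the 12 arrays (up to 0.236) or without any tumour (up to 0.190).

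Oaz2, the gene of antizyme 2 (chr9:65676548-65690300), was higher in LBH589 in all 3 tumours at both times. Its log2 values were 9.03, 9.01 and 9.73 in LBH589 at 6 h, against 8.14, 8.56 and 8.99 in DMSO. At 12 h they were 9.16, 8.89 and 9.35 in LBH589, against 8.32, 8.58 and 8.62 in DMSO. The groups did not overlap, although at 6 h the MP567 array in LBH589 lay just above the MP570 array in DMSO. The log2 fold change was 0.69 at 6 h (95% confidence interval 0.17 to 1.22) and 0.63 at 12 h (0.10 to 1.15). Neither passed the test without the block (limma adjusted p = 0.0729 and 0.0958), and both did with it (0.00151 and 0.00279). Without the DMSO 6 h array of MP570 the unblocked 6 h value was 0.91 and passed (0.0337). Over both times it was 0.66 (limma adjusted p = 0.0111 without the block), a call lost without MP525 (0.101). That comparison takes the 6 h and 12 h arrays of a tumour as separate repeats, although they share the tumour. The Oaz2 effects averaged over the times were 0.86 in MP525, 0.38 in MP567 and 0.74 in MP570. A dimmer probe set of Oaz2 gave smaller values, 0.41 at 6 h and 0.37 at 12 h, with limma adjusted p-values of 0.0431 and 0.0570 without the block and 0.00745 and 0.0121 with it.

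Oaz1, the gene of antizyme 1 (chr10:80826656-80829290), did not pass the test at either time. A further probe set shared with its pseudogene Oaz1-ps was not used, and whether the pseudogene's transcripts also reach the probe set used was not tested. It had log2 values of 9.89, 9.87 and 9.94 in LBH589 at 6 h, against 9.37, 9.63 and 9.62 in DMSO. At 12 h the arrays read 9.81, 9.81 and 9.14 in LBH589, against 9.14, 9.26 and 9.51 in DMSO. The groups did not overlap at 6 h and overlapped at 12 h, where MP570 was lower in LBH589 than in DMSO. Its log2 fold change was 0.36 at 6 h (95% confidence interval -0.03 to 0.75, limma adjusted p = 0.215) and 0.29 at 12 h (-0.11 to 0.68, limma adjusted p = 0.322). With the MP570 array in LBH589 at 12 h left out, the 12 h value was 0.51 and passed (limma adjusted p = 0.0400). Over both times it was 0.32, which missed the threshold without the block (limma adjusted p = 0.0766). It passed there under quantile scaling (0.0448), centring on reference genes (0.0345), without that same array (0.43, 0.00666) and without MP570 (0.50, 0.0218). With the block it passed as deposited (0.0289), a call that ended when any 1 of 7 arrays was left out (up to 0.0935) and without MP525 or MP567 (up to 0.318).

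Azin1, the gene of antizyme inhibitor 1 (chr15:38487430-38519294), passed the test at neither time in either fit. It had log2 values of 9.93, 9.23 and 10.06 in LBH589 at 6 h, against 9.71, 8.98 and 9.80 in DMSO. The 12 h values were 9.91, 8.87 and 9.82 in LBH589, against 9.75, 8.98 and 9.68 in DMSO. MP567 was the lowest array of every group, and the groups overlapped. The mean difference was 0.24 log2 at 6 h (95% confidence interval -0.49 to 0.98) and 0.07 at 12 h (-0.67 to 0.80). With the block the interval at 6 h was 0.05 to 0.43 and the limma adjusted p 0.0501. That p fell under the threshold when arrays were centred on reference genes (0.0121), or without the LBH589 12 h array of MP525 or of MP567 (0.0340 and 0.0347).

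**Figure D2:**
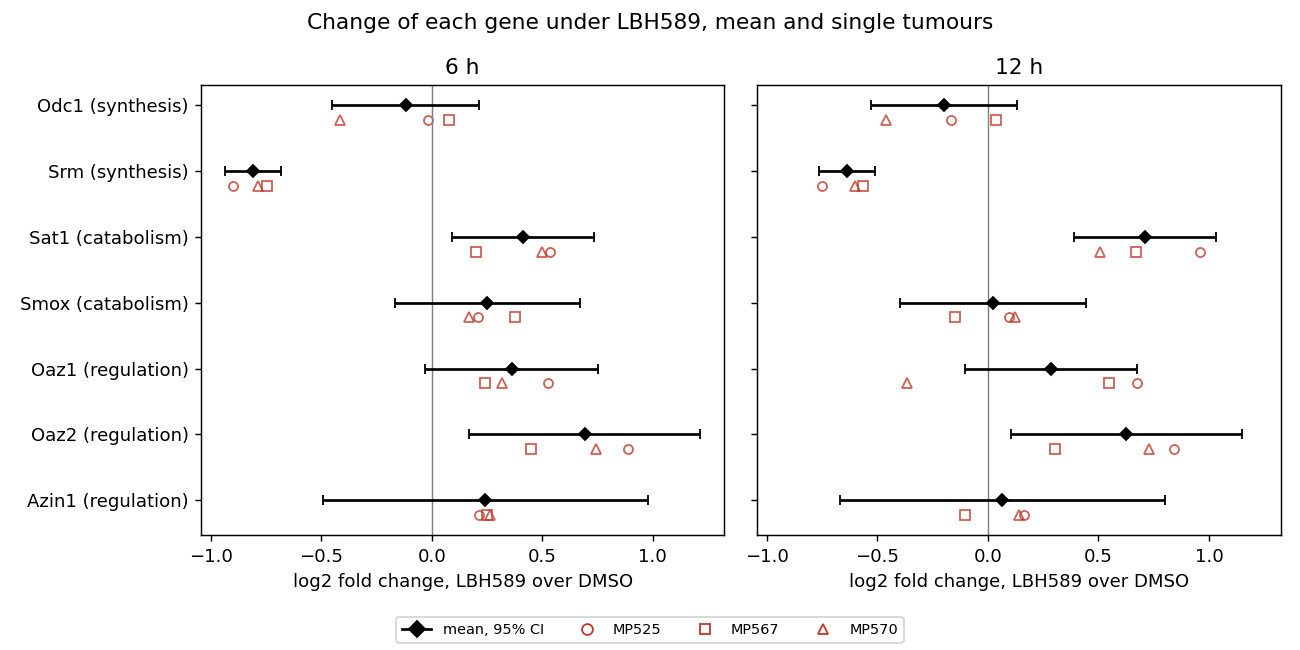
Log2 fold change of LBH589 over DMSO (horizontal axis) for each of the 7 genes at 6 h and 12 h; diamonds with bars are the mean and its 95% confidence interval from the fit without the block, and open symbols are the single tumours. The Srm interval is -0.94 to -0.68 at 6 h and -0.77 to -0.51 at 12 h, and Odc1 is below 0 in MP525 and MP570 and above it in MP567.

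Of the 7 genes, 0 were called higher and 1 lower in LBH589 at 6 h, beside 8.49% and 7.31% of all genes tested, by limma at an adjusted p under 0.05. At an unadjusted p under 0.05 the counts were 2 higher and 1 lower. The block raised the count to 3 higher (18% of all genes), with 1 lower (16%). At 12 h, 1 was higher (9.13%) and 1 lower (9.07%), or 2 (18.6%) and 1 (18.5%) under the block. Over both times the fit called 2 higher (15.7%) and 1 lower (14.4%), or 3 (23.7%) and 1 (22.2%) under the block. These calls over both times take the 6 h and 12 h arrays of a tumour as separate repeats, although they share the tumour. Groups did not overlap for 4 of the 7 at 6 h, beside 32.9% of all genes, and for 3 of the 7 at 12 h, beside 32%. The median size of the log2 fold change, without regard to sign, was 0.36 for the 7 genes and 0.18 for all genes at 6 h, and 0.29 for the 7 genes and 0.19 for all genes at 12 h. With 7 genes, these shares are counts and are not set apart from the background by a test.

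Synthesis and catabolism were compared in each tumour as the mean log2 fold change of Odc1 and Srm against that of Sat1 and Smox, as a description with no test. At 6 h the synthetic mean was -0.46 in MP525, -0.33 in MP567 and -0.60 in MP570, and the catabolic mean was 0.37, 0.29 and 0.33. At 12 h the synthetic mean was -0.46, -0.27 and -0.53, and the catabolic mean 0.53, 0.26 and 0.31. In all 3 tumours at both times the synthetic mean was below 0 and the catabolic mean above it. The difference, synthetic minus catabolic, was -0.79 ± 0.157 at 6 h and -0.79 ± 0.235 at 12 h (SD over 3 tumours). The members moved unequally. Srm had a lower log2 fold change than Odc1 in every tumour at both times, and Odc1 was above 0 in MP567. At 12 h Sat1 had 0.50 to 0.96 by tumour, beside -0.15 to 0.12 for Smox.

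**Figure D3:**
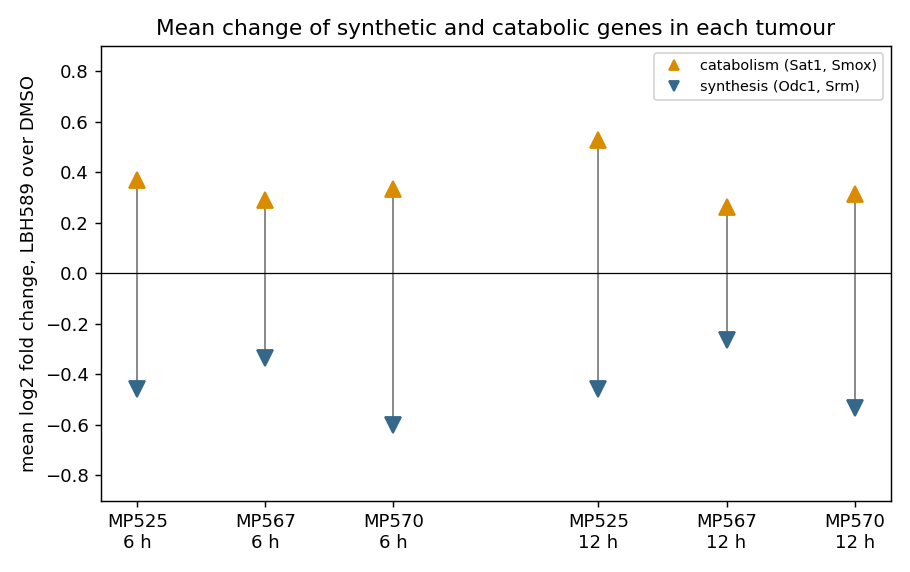
Mean log2 fold change of LBH589 over DMSO (vertical axis) of the synthetic genes Odc1 and Srm (downward triangles) and of the catabolic genes Sat1 and Smox (upward triangles), by tumour and time. The synthetic mean runs from -0.60 to -0.27 and the catabolic mean from 0.26 to 0.53.

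No member passed the test for a change with time. For the difference between the LBH589 effects at 12 h and 6 h, limma called 0 of the 7 in either fit, beside 0% of all genes without the block and 0.0107% with it. At an unadjusted p under 0.05, 0 passed without the block and 1 with it: Srm, whose difference was 0.17 (95% confidence interval 0.01 to 0.33 with the block). In DMSO, limma called 0 of the 7 between 12 h and 6 h, beside 0.0214% of all genes and 0.311% with the block, and in LBH589 0, beside 0% and 1.99%. At an unadjusted p under 0.05, 0 passed without the block in either treatment. With the block 1 did in DMSO (Srm, -0.12) and 2 in LBH589 (Odc1, -0.22, and Azin1, -0.20). The Srm group means ran, from high to low, DMSO at 6 h, DMSO at 12 h, LBH589 at 12 h and LBH589 at 6 h, and only the middle step, between DMSO and LBH589 at 12 h, passed a test. The Sat1 means ran 9.47 in LBH589 at 12 h, 9.31 in LBH589 at 6 h, 8.90 in DMSO at 6 h and 8.76 in DMSO at 12 h. Its steps from 6 h to 12 h did not pass the test. They were 0.16 in LBH589 (95% confidence interval -0.16 to 0.48) and -0.14 in DMSO (-0.46 to 0.18).

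Level by tumour differed for 4 of the 7 genes, beside 37.4% of all genes (limma F test over the tumours, with treatment and time in the fit). Azin1 averaged 9.82 in MP525, 9.02 in MP567 and 9.84 in MP570 (limma adjusted p = 3.21e-06). Smox averaged 9.79, 9.75 and 9.36 (limma adjusted p = 0.000992) and Oaz2 8.66, 8.76 and 9.17 (0.00908). The low tumour was thus MP567 for Azin1 and MP570 for Smox, and MP570 was the high one for Oaz2. Odc1 averaged 11.73, 11.67 and 11.44 (limma adjusted p = 0.0345), a call lost when arrays were centred on their medians (0.0843) or on reference genes (0.0570). These levels pool both treatments. The DMSO arrays alone averaged 11.77, 11.64 and 11.66, so MP570 was not the lowest tumour for Odc1 in DMSO, and its low level came from its LBH589 arrays. Srm, Sat1 and Oaz1 did not pass (limma adjusted p = 0.712, 0.102 and 0.830), and Sat1 passed under quantile scaling (0.0440).

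The LBH589 effect itself differed between tumours for Odc1 alone of the 7, beside 4.35% of all genes (limma F test with both times as repeats of a tumour, 4 residual degrees of freedom). Averaged over the times, the Odc1 log2 fold change was -0.09 in MP525, 0.06 in MP567 and -0.44 in MP570 (limma adjusted p = 0.0204). Leaving out any 1 of 6 arrays ended the call, 3 of MP567 (DMSO at 6 h and both at 12 h) and 3 of MP570 (both at 6 h and LBH589 at 12 h), with adjusted p-values up to 0.113. Oaz1 had effects of 0.60, 0.40 and -0.02 and did not pass (limma adjusted p = 0.156). Without the LBH589 6 h array of MP570 it passed (0.0120). For the other genes the adjusted p ran from 0.269 (Oaz2) to 0.988 (Smox).

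Genes around the pathway were taken from a list of 32, of which 28 were on the array and 27 were bright enough to be tested. At 6 h, 5 of the 27 were higher and 5 lower in LBH589 (9 and 8 with the block), and at 12 h 5 were higher and 4 lower (7 and 7 with the block), by limma at an adjusted p under 0.05. The background shares are those given above for each time. The median log2 fold change was 0.09 at 6 h and -0.03 at 12 h for the 27 genes, beside -0.02 and 0.01 for all genes.

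Of the 3 tested paralogues of pathway members, Azin2 and Sat2 rose. Azin2, the gene of antizyme inhibitor 2, had log2 values of 8.60, 8.52 and 8.77 in LBH589 at 6 h, against 7.54, 7.62 and 7.74 in DMSO. At 12 h it had 8.78, 8.93 and 9.09 in LBH589, against 7.71, 7.78 and 7.55 in DMSO. The groups did not overlap, and its log2 fold change was 0.99 ± 0.118 at 6 h and 1.26 ± 0.118 at 12 h (SE, limma adjusted p = 0.000354 and 7.36e-05). Azin1 did not pass the test at either time, and the difference between the Azin1 and Azin2 effects was not tested. Sat2 had 0.54 and then 0.56 (limma adjusted p = 0.0462 and 0.0354, and 0.000410 and 0.000270 with the block). Oaz3 did not pass, with 0.12 and -0.03.

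Of the 7 genes of arginine and ornithine supply, Arg2 rose most. Arg2, the mitochondrial arginase that makes ornithine, had log2 values of 8.01, 8.50 and 8.22 in LBH589 at 6 h, against 7.26, 7.74 and 7.49 in DMSO. After 12 h the values were 8.88, 8.85 and 8.68 in LBH589, against 7.12, 7.65 and 7.35 in DMSO. Its log2 fold change was 0.75 ± 0.170 at 6 h and 1.43 ± 0.170 at 12 h (SE, limma adjusted p = 0.0119 and 0.000294), with the groups apart at both times. Oat, ornithine aminotransferase, was 0.57 and 0.47 higher on the log2 scale and passed with the block and not without it (limma adjusted p = 6.22e-05 and 0.000267). Slc7a1, a carrier of arginine and ornithine into the cell, was lower: its log2 fold change was -0.62 after 6 h and -0.54 after 12 h (limma adjusted p = 0.0355 and 0.0535, the second passing with the block, 9.49e-05). Aldh18a1, which leads from glutamate towards ornithine and proline, was lower at 6 h, at -0.34 (limma adjusted p = 0.0303), and did not pass at 12 h, at -0.17. Arg1, Slc7a2 and Agmat did not pass in either fit.

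The genes that use or recycle pathway products moved in both directions. Dhps, deoxyhypusine synthase, which uses spermidine to modify eIF5A, had log2 values of 9.72, 9.55 and 9.99 in LBH589 at 6 h, against 10.51, 10.26 and 10.63 in DMSO. At 12 h the arrays read 9.53, 9.53 and 9.64 in LBH589, against 10.21, 10.05 and 10.48 in DMSO. The groups did not overlap, and its log2 fold change was -0.71 and -0.68 (limma adjusted p = 0.00876 and 0.00968). Eif5a, the substrate, had -0.23 at 6 h (limma adjusted p = 0.108, and 0.00542 with the block) and -0.44 at 12 h (0.00524). Eif5a2, its paralogue, had 0.65 at each time and passed with the block and not without it (limma adjusted p = 0.00219 and 0.00190). Dohh, which completes the modification, did not pass, with 0.10 and 0.03.

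Among the 5 genes that salvage methylthioadenosine, the by-product of spermidine and spermine synthesis, 2 fell and 1 rose at both times. Mri1, the methylthioribose-1-phosphate isomerase, had a log2 fold change of -0.54 after 6 h and -0.58 after 12 h (limma adjusted p = 0.0148 and 0.00860). Adi1, the acireductone dioxygenase, had -0.78 and -0.59 (limma adjusted p = 0.0100 and 0.0334). Apip, the dehydratase between them, had 0.59 and 0.60 (limma adjusted p = 0.0344 and 0.0286). Mtap, which opens this route, and Enoph1 did not pass. Of the genes of S-adenosylmethionine supply, Mat2b passed with the block and not without it at 6 h, at 0.33 (limma adjusted p = 0.0166), and Mat1a did not pass. Mat2a, also listed for this supply, had no probe set of its own and was not tested.

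Among 6 tested transport genes, Atp13a2, a lysosomal exporter of polyamines, rose at both times. It had log2 values of 9.20, 9.46 and 9.34 in LBH589 at 6 h, against 8.33, 8.52 and 8.38 in DMSO. The 12 h values were 9.56, 9.63 and 9.17 in LBH589, against 8.17, 8.42 and 8.14 in DMSO. The groups did not overlap, and its log2 fold change was 0.93 ± 0.144 and 1.21 ± 0.144 (SE, limma adjusted p = 0.00150 and 0.000294). With the block and not without it, Slc18b1, a vesicular polyamine carrier, passed as lower, at -0.83 and -0.67 (limma adjusted p = 0.000395 and 0.00184), as was Slc12a8, at -0.57 and -0.57 (0.00123 and 0.000978). Atp13a3, a polyamine transporter of the same family as Atp13a2, passed at 6 h with the block and not without it, at 0.29 (limma adjusted p = 0.0285). Slc3a2 and Slc22a2 did not pass. Without the block, the calls of Azin2 and Atp13a2 at both times and of Arg2 at 12 h held without each array, without each tumour and under the 3 scalings. The other 14 unblocked calls of these genes were each lost without at least 1 tumour (adjusted p up to 0.276), 9 of them also without a single array (up to 0.169) and 5 under a scaling (up to 0.0817). Those lost under a scaling were Aldh18a1 and Apip at 6 h, Adi1 at 12 h and Sat2 at both times. The Sat2 call at 6 h was lost without any 1 of 9 arrays. With the block, calls were lost without single arrays or tumours for Mat2b, Atp13a3 and Apip at 6 h, and without 1 tumour for Eif5a at 6 h and Apip at 12 h.

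**Figure D4:**
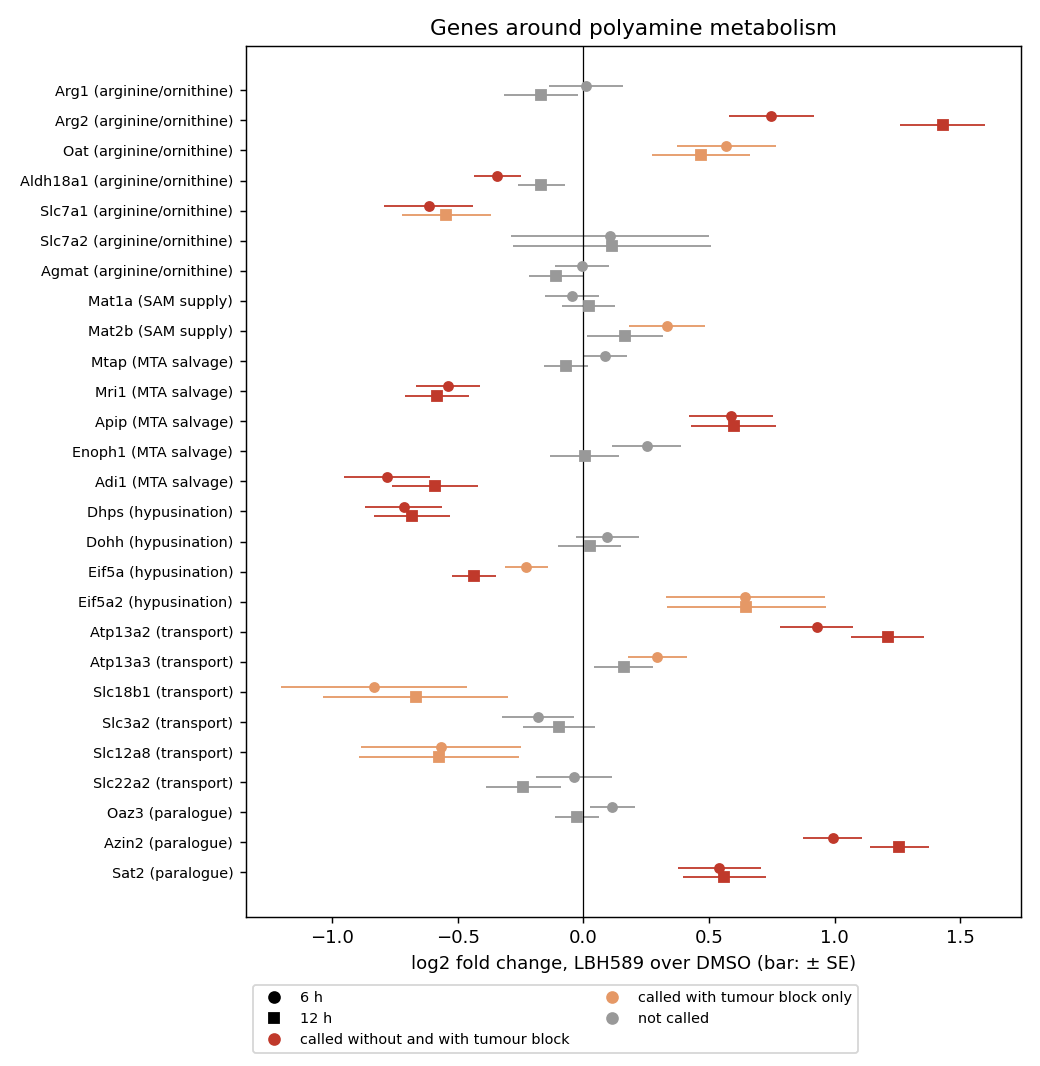
Log2 fold change of LBH589 over DMSO (horizontal axis, bars are ± 1 SE) of the 27 genes around the pathway at 6 h (circles) and 12 h (squares), coloured by whether limma called them without and with the tumour block, with the block only, or not. Arg2, Azin2 and Atp13a2 lie furthest to the right, with 1.43, 1.26 and 1.21 at 12 h.

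The genes whose values ran most like those of a member over the 12 arrays were found by Pearson's r, as a description. The arrays share tumours and treatments, so r carries both. Nearest to Srm were Exosc10 (r = 0.989), a subunit of the RNA exosome, Gtf2i (0.984) and Casd1 (0.983). Nearest to Sat1 were Etfa (0.968), Dpp7 (0.965) and Mlf1 (0.962). For Odc1 they were H2ac10 (0.927), Marcksl1-ps4 (0.882) and Nsl1 (0.879), and for Smox Phlpp1 (0.932), Klhl15 (0.916) and B4galt1 (0.915).

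Over the 12 arrays, medians of all probe sets lay between 7.10 and 7.21, and any pair of arrays correlated at 0.965 to 0.991. Of 7 markers of Group 3 tumours, Myc and Npr3 were above the array median on all 12 arrays, and Crx, Nrl and Impg2 were below it on all. Npr3 was lower in LBH589 (-1.63 after 6 h and -1.61 after 12 h, limma adjusted p = 0.00165 and 0.00146). The other genes of this list did not pass at either time (smallest limma adjusted p = 0.123, Crx at 6 h). The summed linear level of the Group 3 list was 1585 to 1877 in LBH589 and 2705 to 4365 in DMSO at 6 h, and 1561 to 2024 in LBH589 and 2570 to 4068 in DMSO at 12 h, with no overlap at either time. Npr3 was the brightest gene of the list (log2 values of 9.22 to 11.55) and weighs most in this sum, which therefore does not stand for the whole list. A sum without Npr3 was not tested. Of 6 markers of microglia and macrophages 0 were called at either time by limma without the block, the smallest adjusted p being 0.0594 (Ptprc at 12 h). Cx3cr1 was above the array median on all 12 arrays, Csf1r on 10, Tmem119 on 9, Itgam on 7, Ptprc on 1 and Aif1 on 0, and the list's summed linear level was 855.4 to 923.8 in LBH589 and 920.8 to 1007 in DMSO at 6 h, and 879.3 to 1049 in LBH589 and 918.4 to 1212 in DMSO at 12 h. Of 5 neural progenitor markers, Msi1 was lower (-1.02 and -1.04, limma adjusted p = 0.000624 and 0.000446), Sox9 higher (0.84 and 0.90, 0.00358 and 0.00209) and Prom1 lower at 12 h (-0.98, 0.00295). That list's summed level was 2504 to 2874 in LBH589 and 2998 to 4141 in DMSO at 6 h, and 2604 to 3664 in LBH589 and 3221 to 4022 in DMSO at 12 h. Of 4 endothelial markers 1 was called higher, Kdr, at 0.81 and 0.71 (limma adjusted p = 0.0105 and 0.0173). Of 4 neuron markers, Syt1 was higher (0.54 and 0.78, limma adjusted p = 0.0472 and 0.00709) and Rbfox3 lower at 12 h (-0.72, 0.0317), with overlapping sums of 4531 to 9677 in LBH589 and 3721 to 9535 in DMSO at 6 h. Over the 4 granule neuron precursor, 4 astrocyte, 3 oligodendrocyte and 4 fibroblast and pericyte markers measured, the smallest limma adjusted p without the block was 0.132 (Col1a1 at 12 h). The part of these shifts in the values above was not tested.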

How the data were processed

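Total RNA of 12 cultures was measured on Affymetrix whole-transcript arrays. Per the labels' protocols it was extracted with Qiagen RNeasy, made into cDNA with Ambion's WT Expression kit and biotin-labelled. The values the authors deposited are log2 expression values, 1 for each of 41345 probe sets; the base of the logarithm follows from the range, 1.50 to 14.47. Per the submitters' processing notes the program named is Agilent Feature Extraction 10.7.3.1, made for another maker's arrays; how they were summarised and normalised is not stated there, and the values were used as deposited. Arrays have no read depth, and their number limits the precision. No batch label was found in the sources used here.

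Of the probe sets, 23521 named 1 gene, 1814 several (not used) and 16010 had no gene in the annotation table used. Symbols were updated through Entrez numbers with RefSeq (GRCm38.p6), whose gene positions and promoters are printed; the sources used here name no build for the array annotation. The brightest probe set stood for each of 22180 genes, and the 18652 above the 25th percentile of an array's probe sets on at least 3 arrays were tested. Of the members, 7 of 10 had a probe set of their own.

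Arrays were grouped by treatment and time from the labels. The 4 group means were fitted with limma 3.58.1 in R 4.3.3 (lmFit, eBayes with a trend, 8 residual degrees of freedom), and 6 comparisons were drawn from them, which share arrays and are not independent. The comparison over both times takes the 6 h and 12 h effects of a tumour as separate repeats, with or without the block described below. Its p-values may therefore be too small. Two-sided p-values were adjusted by Benjamini-Hochberg over all 18652 genes, and a call is an adjusted p under 0.05. The labels give every tumour 1 array in each group. Deviations from the group means correlated at 0.450 to 0.805 for 18 pairs sharing a tumour, and at -0.510 to -0.0577 for the 36 pairs of other tumour and group. Deviations cancel within a group, so positive values for a shared tumour bring negative ones elsewhere, and these are no separate support. Because of the pairs sharing a tumour, a second fit that adds the tumour as a block (6 residual degrees) is given where it changes a call or a count. On simulated data for the 6 h comparison over 18652 genes, 86% of 100 genes changed by 1 log2 unit and 99% of 100 changed by 2 were recovered without the block, and 95% and 100% with it. False calls numbered 4 without the block and 8 with it. The simulation changed 200 genes, while 2948 were called in the data without the block. The largest member change at 6 h, -0.81 (Srm), was smaller than those simulated, so these rates do not give the power for the members.

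Named were the listed members, genes of a list around the pathway that were called at 6 h or 12 h in either fit (the others are named as not passing), and the 3 genes nearest by Pearson's r to each of Odc1, Srm, Sat1 and Smox. The members and lists were chosen with earlier results of these data known. Alternatives were 3 scalings, other filters, averaging a gene's probe sets, no mean-variance trend, and leaving out each array and each tumour.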

Additional observations from a re-analysis of the deposited data

Results flagged for a closer look

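The response of Odc1 to LBH589 differed between tumours, by a limma F test of the difference itself (adjusted p = 0.0204, and 0.0187 to 0.0345 under 3 other scalings). Its log2 fold change lay on opposite sides of 0 at both times in MP525 and MP567, with a difference between their effects (MP525 minus MP567, mean over the times) of -0.15. It did so too in MP567 and MP570, with a difference (MP567 minus MP570) of 0.49. Neither pair of tumours was tested by itself. The MP525 effects were -0.02 at 6 h and -0.17 at 12 h, those of MP567 0.08 and 0.03, and those of MP570 -0.41 and -0.46. The 6 h effects of MP525 and MP567 thus both lay close to 0. The F test rests on 12 arrays, and without any 1 of 6 of them its adjusted p lay above the threshold, up to 0.113.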

How the results depend on the processing

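For the 7 genes, limma called 1 at 6 h without the tumour block, 4 with the replicate block (tumour), 2 when a gene's probe sets were averaged and 2 with the other probe set of Oaz2, which was chosen after seeing the data; leaving out single arrays or tumours gave 1 to 2. At 12 h it called 2 (1 to 3 when arrays or tumours were left out, 1 without MP525), and over both times 3 (1 to 4, 1 without MP525). With the replicate block the 4 calls at 6 h ran from 2 (without the LBH589 6 h array of MP570, the DMSO 6 h array of MP525, or MP525) to 5, the 3 at 12 h from 3 to 4, and the 4 over both times from 3 to 5. Leaving out single arrays with the block was added after seeing the data. For the 3 comparisons that involve time the count was 0 in both fits under every setting run. Single-gene values, counted over all settings, stayed on their side of the threshold in 1863 cases, lost a call in 36, gained one in 33 and changed the sign of a called value in 0. Synthetic minus catabolic means under quantile scaling were -0.79 at 6 h and -0.82 at 12 h. Leaving Amd1 or Paox out of these means was planned and not run, since neither has a value. Over all genes, centring on reference genes gave 1985 higher and 1059 lower calls at 6 h and 2435 and 1234 at 12 h, against 1584 and 1364, and 1703 and 1692, as deposited; its median log2 fold change was 0.04 and 0.10. The causes were not tested. The 95% confidence intervals without the block were as wide as -0.49 to 0.98 (Azin1 at 6 h), where the block gave 0.05 to 0.43. With 3 arrays a group, a gene that did not pass is not shown to be unchanged. No scaling recovers a change that moves all genes alike.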

Other observations

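The genes that ran most like Srm over the arrays included some with larger changes, given here as values and chosen by that likeness. Genes in this paragraph were chosen on these same arrays, so their calls follow in part from that choice and are no separate evidence. Casd1, an enzyme of sialic acid acetylation, had a log2 fold change of -2.16 at 6 h and -2.04 at 12 h, and Gtf2i, a transcription factor, -1.49 and -1.42. Exosc10 had -0.87 and -0.62. All 3 were called lower by limma at both times, with adjusted p-values from 1.31e-05 to 0.000304. Among those most like Sat1, Mlf1 had 1.09 at 6 h and 1.54 at 12 h, and Etfa, the alpha subunit of the electron transfer flavoprotein of mitochondria, 0.58 and 0.75. Dpp7, a lysosomal peptidase, had 0.61 and 0.92. Mlf1 and Etfa were called higher by limma at both times, and Dpp7 at 12 h and, with the tumour block, at 6 h (adjusted p = 0.00127). None of the 3 genes most like Odc1 was called at either time without the block, and with it Nsl1 was lower at 12 h, at -0.37 (limma adjusted p = 0.0106).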
